A study of Mus musculus with 6 samples.

Results

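Ribosomal proteins are the protein components of the cytosolic ribosome, which joins a small subunit that reads the mRNA to a large subunit that forms the peptide bond. Their genes were taken by symbol (Rpl or Rps with a number, an optional letter and an optional final l for a related copy, plus Rplp0, Rplp1, Rplp2 and Rpsa). Symbols with -ps and Rps6 kinases were left out, while Rps4l, annotated as a pseudogene, was kept by its symbol. The names matched 85 of 24411 genes in a table of mouse liver RNA, and 81 of these had a mean of at least 0.5 TPM (the share of transcripts in a library, scaled per transcript length) and were tested beside 12539 genes in all. The 81 genes comprise 48 of 52 large subunit genes and 33 of 33 small subunit genes.

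The study compared livers of 3 Sox9 cKO samples, genotype Alb-Cre+/+;Sox9 flox/flox, with livers of 3 control samples labelled WT. Per the series' design text, Sox9, a transcription factor of the bile duct lineage, was floxed and deleted by Cre under the albumin promoter, to remove it from liver epithelial cells (hepatocytes and cholangiocytes); other liver cells are not its target. The design text names C57BL/6J mice among those used; whether the control animals carried Cre or a floxed allele, and the age and sex of any animal, are not given in the labels. The labels do not state that each sample came from its own animal, and the p-values then rest on sample-to-sample spread alone, which may in part be technical.

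Cells make the ribosomal proteins in nearly equal numbers, and their mRNAs are among the most abundant in liver, a tissue that secretes much of the protein of blood plasma. In mammals these mRNAs begin with a 5′ terminal oligopyrimidine (TOP) tract, a C followed by an uninterrupted run of C and T in the gene, through which mTOR signalling controls their translation together. Transcription of the rRNA by RNA polymerase I and assembly of the subunits in the nucleolus complete the supply of ribosomes. The deposited values are RNA levels, and neither translation nor ribosome number was measured.

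The stretches around the annotated starts show a pyrimidine run that was found in 32 of 60 members with a promoter window, and members in which none was found. Sequences are from RefSeq on GRCm38.p6, on the gene's strand, from 40 bases before to 20 bases after the start; capitals mark runs of at least 8 C or T that lie within 20 bases of the start. Rps6, the substrate of S6 kinase (chr4:86857348-86857407), Rpl7a (chr2:26910767-26910826), Rps18 of the small subunit head (chr17:33955646-33955705), Rpl35 (chr2:39005112-39005171) and Rpl15 (chr14:18270967-18271026) are shown because they carry a run; Rpl14 (chr9:120571477-120571536) and Rpl22l1 (chr3:28805468-28805527) are shown because they also carry one and their fitted differences lie below and above 0.
Rps6: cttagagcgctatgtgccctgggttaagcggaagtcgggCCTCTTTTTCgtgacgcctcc
Rpl7a: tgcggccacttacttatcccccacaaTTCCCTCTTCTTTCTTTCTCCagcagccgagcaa
Rps18: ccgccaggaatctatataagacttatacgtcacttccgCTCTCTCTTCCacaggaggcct
Rpl35: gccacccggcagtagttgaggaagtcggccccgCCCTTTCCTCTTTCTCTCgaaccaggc
Rpl15: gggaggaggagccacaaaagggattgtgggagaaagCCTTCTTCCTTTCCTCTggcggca
Rpl14: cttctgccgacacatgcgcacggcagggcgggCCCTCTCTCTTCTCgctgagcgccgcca
Rpl22l1: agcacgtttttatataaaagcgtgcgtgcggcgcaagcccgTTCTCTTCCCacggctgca

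In Rpsa, the small subunit protein also known as a laminin receptor (chr9:120127726-120127785), in the copy gene Rpl36al (chr12:69184048-69184107) and at both annotated starts of Rpl22 (1 shown, chr4:152325686-152325745) no such run lay within 20 bases of the start.
Rpsa: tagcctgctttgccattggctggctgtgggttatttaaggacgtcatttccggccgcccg
Rpl36al: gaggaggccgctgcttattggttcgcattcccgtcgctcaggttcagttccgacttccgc
Rpl22: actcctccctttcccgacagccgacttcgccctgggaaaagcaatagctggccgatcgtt

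Of the 81 genes, 60 had a promoter window in the RefSeq table, from 250 bases before to 50 after the start. A run of at least 8 C or T within 20 bases of the start stood in 32 of 60 (53.3%), against 23.7% of all 27025 genes with a window, 23.6% of 9464 other tested genes and 17 of 68 mitochondrial ribosomal protein genes. The letters CCGGAAG, the core bound by ETS factors, stood on either strand in 24 of the 60 genes, against 19.8% of other tested genes, 9.93% of all genes and 36.8% of mitochondrial ribosomal protein genes. The letters CTCTTTC, searched on both strands and able to overlap a pyrimidine run, stood in 28.3%, against 8.77% of other tested genes and 9.28% of all genes. These matches describe the letters in the windows and are no measure of binding or of use as a start. A TOP tract shorter than 8 bases, or at a start other than the annotated one, would not be counted.

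The levels were high in most of the genes. The median over the 81 genes of the mean level was 498 TPM (quartiles 354 and 623 TPM), against 9.28 TPM over all tested genes, and 66 of the 81 were among the 500 genes with the highest mean. The 74 genes above 100 TPM spanned 166 to 1411 TPM, an 8.5-fold range. The other 7 reached down to a mean of 4.3 TPM, in Rps27. Small subunit genes had a median mean level of 520.4 TPM and large subunit genes 442 TPM.

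At the top stood Rplp1, an acidic protein of the ribosomal stalk, with 1281, 1767 and 1248 TPM in Sox9 cKO livers, against 1282, 1285 and 1601 TPM in control livers. Rpl10, which joins the large subunit late in its maturation, had 1241, 1709 and 1145 TPM in Sox9 cKO livers, against 1289, 1257 and 1498 TPM in control livers. In both genes the groups overlapped, with Sox9 cKO replicate 2 and control replicate 3 above the other 4 libraries. Rps18 had 916, 1182 and 915 TPM in Sox9 cKO livers, against 1055, 1031 and 1217 TPM in control livers. Rpl41, the smallest ribosomal protein, had 859, 1199 and 866 TPM in Sox9 cKO livers, against 1117, 1051 and 1140.0 TPM in control livers. Rps29, a zinc-binding protein of the small subunit head, had 666, 999 and 635 TPM in Sox9 cKO livers, against 726, 743 and 879.5 TPM in control livers. In Rps18 and Rpl41 Sox9 cKO replicates 1 and 3 were the lowest of the 6 libraries, and the groups overlapped through replicate 2.

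**Figure D1:**
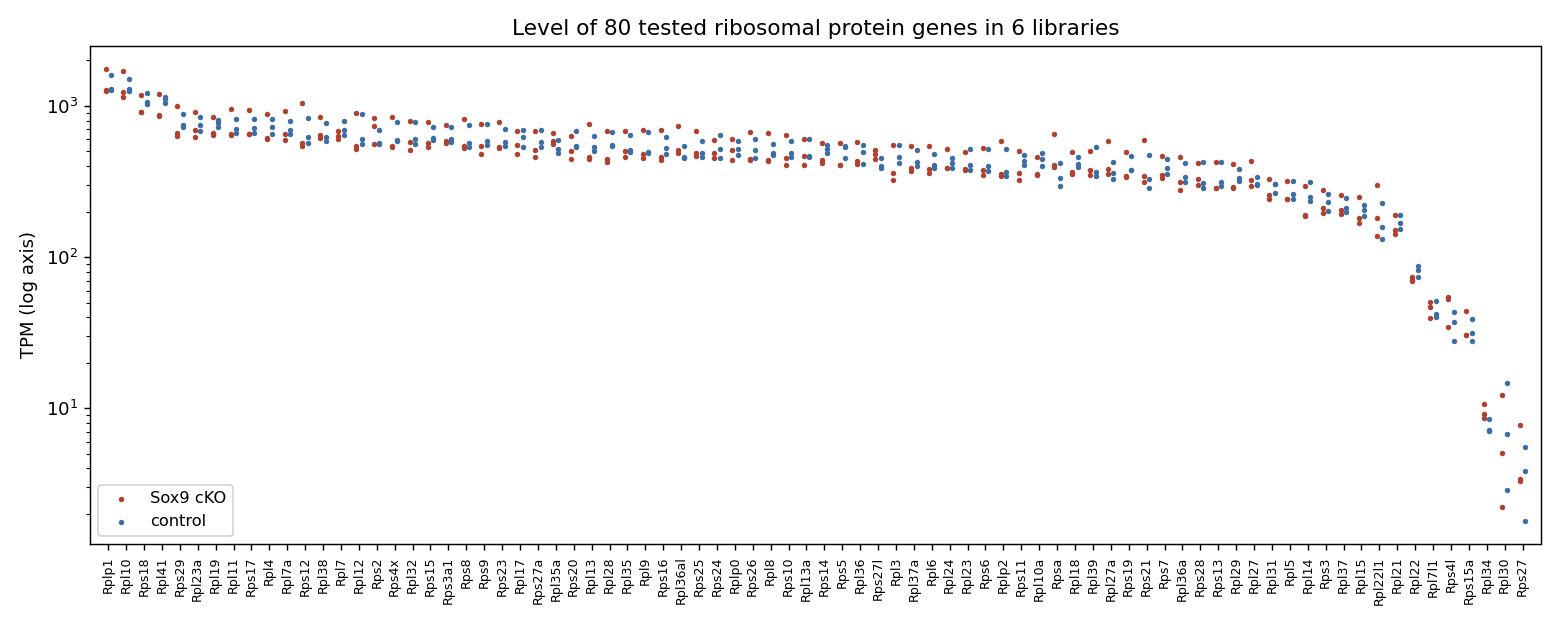
Level of 80 tested ribosomal protein genes, in TPM on a log axis, ordered by mean level. Red points are the 3 Sox9 cKO libraries and blue points the 3 control libraries. Most lie above 100 TPM, and Rps27, Rpl30 and Rpl34 have the lowest means, under 9 TPM.

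No ribosomal protein gene passed the test between Sox9 cKO and control livers: limma on log2(TPM + 0.5) called 0 of 81 higher and 0 of 81 lower at an adjusted p under 0.05, and 0 had an unadjusted p under 0.05. Over all 12539 tested genes, 0.821% were called higher and 8.76% lower. The median log2 fold change of the 81 genes was -0.047, with quartiles of -0.084 and 0.027, against -0.24 over all tested genes and -0.24 over the 12458 others. Of the 81, 27 lay above 0 and 54 below. Large subunit genes had a median of -0.046 and small subunit genes of -0.049.

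The error limits what this can show for a single gene. The median standard error was 0.18 on the log2 scale, the 95% interval lay within 0.5 of 0 for 38 genes and within 1 of 0 for 79, and the exceptions were Rpl30 and Rps27, listed at low TPM. In 73 of 81 genes the group means differed by less than the pooled standard deviation. The groups did not overlap in 2 genes, 1 higher and 1 lower (2.47%), while over all tested genes 3.79% did not overlap and were higher and 33.7% did not overlap and were lower. The direction of the small median rested on single libraries: it was -0.21, with 9 genes above 0, without Sox9 cKO replicate 2, and 0.071, with 59 above 0, without control replicate 3. The distance of the members' median from that of all tested genes, 0.19 as reported, was -0.0054 without Sox9 cKO replicate 2 and 0.33 without control replicate 3.

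**Figure D2:**
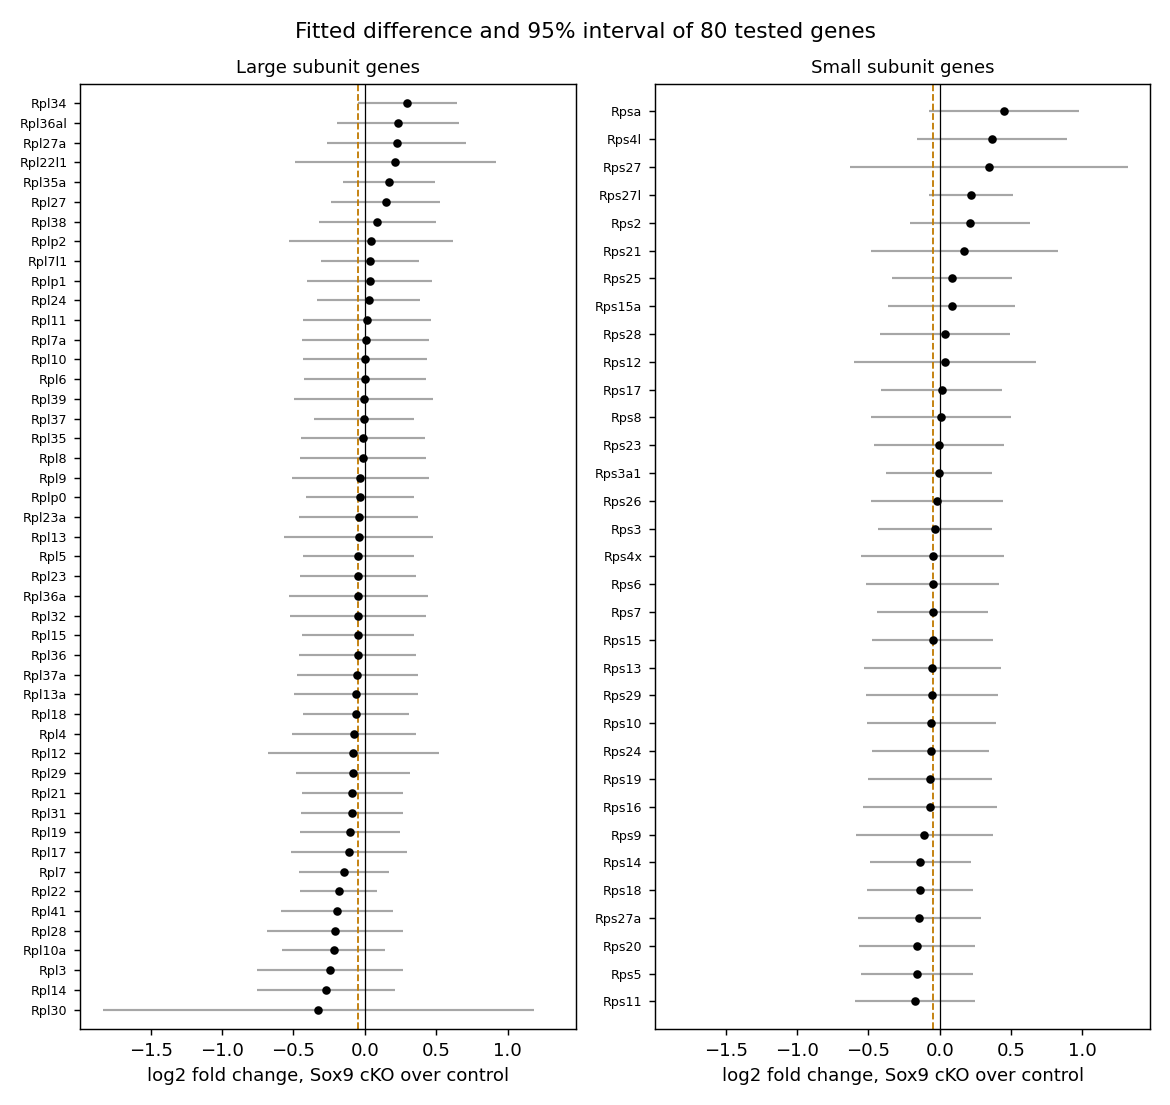
Fitted log2 fold change, Sox9 cKO over control, on the log2(TPM + 0.5) scale, for 80 tested genes of the large subunit (left) and the small subunit (right). Points are estimates, bars are 95% intervals from limma, the solid line marks 0 and the dashed line the median of the 81 genes, -0.047; every interval includes 0.

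Of the 3 largest fitted differences above 0, Rpsa had 406, 652 and 396 TPM in Sox9 cKO livers, against 334, 293 and 418 TPM in control livers. The groups overlapped through control replicate 3, and the log2 fold change was 0.45 ± 0.23 (SE), with an adjusted p of 0.22 by limma. Rps4l, a row that GENCODE M21 annotates as a transcribed processed pseudogene of the small subunit gene Rps4x, had 53.2, 54.3 and 34.4 TPM in Sox9 cKO livers, against 28.1, 43.7 and 37.5 TPM in control livers (log2 fold change 0.37 ± 0.23, adjusted p = 0.31 by limma). Here Sox9 cKO replicates 1 and 2 were highest and replicate 3 lay among the control values. Rps27, a low row given below with its copy, stood at 0.35 ± 0.42 on the same scale (adjusted p = 0.61 by limma).

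Of the 3 largest below 0, Rpl14 had 188, 296 and 189.7 TPM in Sox9 cKO livers, against 251, 236 and 315 TPM in control livers. Sox9 cKO replicates 1 and 3 were the lowest of all libraries, replicate 2 lay among the controls, and the log2 fold change was -0.27 ± 0.21 (adjusted p = 0.41 by limma). Rpl3, a protein close to the peptidyl transferase centre, had 359, 553 and 322 TPM in Sox9 cKO livers, against 459.9, 419 and 551 TPM in control livers (log2 fold change -0.24 ± 0.22, adjusted p = 0.49 by limma). In Rpl3 as well, the groups overlapped through Sox9 cKO replicate 2. Rpl30, the other low row with a large fitted difference, stood at -0.32 ± 0.65 on this scale (adjusted p = 0.77 by limma).

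The 2 genes whose groups did not overlap were Rpl34 and Rpl22, named for that after their values were seen. Rpl34 had 9.19, 8.60 and 10.7 TPM in Sox9 cKO livers, against 8.53, 7.22 and 7.10 TPM in control livers (log2 fold change 0.30 ± 0.15, adjusted p = 0.23 by limma). Rpl22 had 69.96, 73.8 and 70.1 TPM in Sox9 cKO livers, against 81.6, 73.95 and 87.9 TPM in control livers (log2 fold change -0.18 ± 0.12, adjusted p = 0.33 by limma). The gap between the nearest libraries of the 2 groups was under 1 TPM in each.

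The members moved together from library to library. In 70 of 81 genes (86.4%) Sox9 cKO replicate 2 and control replicate 3 were the 2 highest libraries, against 4.22% of the 12458 other tested genes and 7.36% of the 1100 others with a mean of at least 100 TPM. Sox9 cKO replicate 2 was the highest library in 62 genes and control replicate 3 in 16. The median deviation of the 81 genes from their own means, on the log2(TPM + 0.5) scale, was -0.17, 0.32 and -0.20 in Sox9 cKO replicates 1 to 3, against -0.040, -0.13 and 0.21 in control replicates 1 to 3. Other genes did not show this order: their medians were -0.072, -0.21 and -0.11 in Sox9 cKO livers, against 0.16, 0.11 and 0.094 in control livers.

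Summed over the 81 genes, ribosomal protein genes made up 3.49%, 4.93% and 3.42% of all TPM in Sox9 cKO livers, against 3.80%, 3.61% and 4.55% in control livers. The groups overlapped, and within each group 1 library lay well above the other 2. The ratio of large to small subunit TPM was nearly the same throughout, at 1.44, 1.41 and 1.43 in Sox9 cKO livers, against 1.45, 1.45 and 1.42 in control livers. The median gene was 1.49-fold higher in its highest library than in its lowest.

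**Figure D3:**
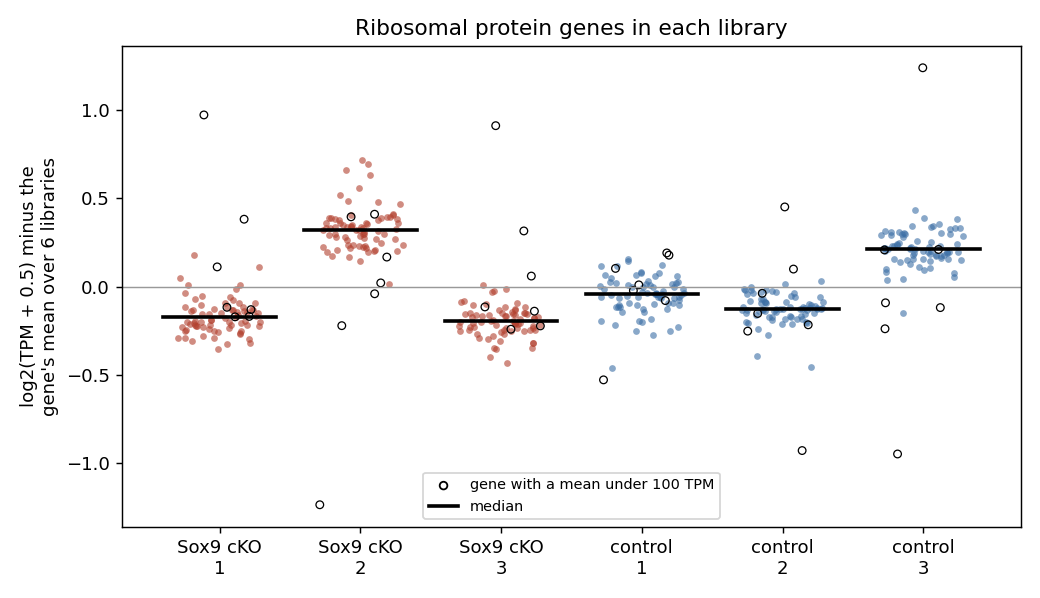
Deviation of each tested ribosomal protein gene from its own mean, log2(TPM + 0.5), in the 6 libraries. Each point is a gene, black bars are medians and open circles are genes with a mean under 100 TPM; the medians of Sox9 cKO replicate 2 (0.32) and control replicate 3 (0.21) lie above 0 and the other 4 below.

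In 8 genes the highest library of at least 1 group was another one. Among them were Rpl31 and Rps27l, with means of 284 and 447 TPM, Rpl7l1 and Rps4l, with means of 45.1 and 41.9 TPM, and Rpl30, Rpl34 and Rps27, with means under 9 TPM. Rps27l had 480.0, 515 and 448 TPM in Sox9 cKO livers, against 389, 449.6 and 401 TPM in control livers, so that control replicate 2 was the highest control.

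Ribosomal protein transcripts are short, with a median of 767.5 nt in GENCODE M21 for the 80 genes with a length, against 2771 nt for other tested genes, and length moved with the libraries too. The 375 other genes under 800 nt had median deviations of 0.055, 0.12 and -0.21 in Sox9 cKO livers, against 0.0049, 0.0022 and 0.045 in control livers, and in 11.2% of them Sox9 cKO replicate 2 and control replicate 3 were the 2 highest. Other genes of 3000 nt or more had medians of -0.12, -0.33 and -0.055 in Sox9 cKO livers, against 0.22, 0.14 and 0.13 in control livers. Within the ribosomal protein genes, the 26 under 600 nt had medians of -0.13, 0.32 and -0.20 in Sox9 cKO livers and -0.071, -0.13 and 0.20 in control livers. The 36 of 800 nt or more had -0.20, 0.33 and -0.18 in Sox9 cKO livers and -0.044, -0.13 and 0.22 in control livers. Each length is that of 1 annotated coding transcript per gene, which need not be the one expressed. Rps15a and Rps20, for example, were given 5130 and 3706 nt. The part of length in the pattern was not tested.

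When the log values of each library were centred on the median ribosomal protein gene, an alternative chosen after seeing the data, the shared movement between libraries was removed and the balance among the genes could be read. The groups then did not overlap in 20 of the 81 genes, 12 higher and 8 lower in Sox9 cKO livers, against 3.36% and 18.7% of all tested genes divided by the same median. Centring on the members balances the directions among them by construction. Limma on the centred values called 0 of the 81 genes, with 1 unadjusted p under 0.05, and over all tested genes 0.447% higher and 1.18% lower. Rpsa stood at 0.94, 1.09 and 0.92 times the library's median ribosomal protein gene in Sox9 cKO livers, against 0.69, 0.65 and 0.76 times in control livers, with an adjusted p of 0.24 by limma on centred values. Rpl36al stood at 1.18, 1.23 and 1.15 times the median in Sox9 cKO livers, against 0.95, 1.00 and 0.98 times in control livers. Rpl27a stood at 0.89, 0.98 and 0.83 times the median in Sox9 cKO livers, against 0.74, 0.73 and 0.77 times in control livers. Rpl14 stood at 0.44, 0.50 and 0.44 times the median in Sox9 cKO livers, against 0.52, 0.52 and 0.57 times in control livers. These 4 genes were picked from the 20 after their values were seen, and none of them passed the test.

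The stalk, formed by Rplp0 with Rplp1 and Rplp2, recruits translation factors to the large subunit. Rplp0 (chr5:115559467-115563727) had 437, 609 and 508 TPM in Sox9 cKO livers, against 519, 476 and 589 TPM in control livers. Rplp2 (chr7:141447370-141451585) had 344, 584 and 353 TPM in Sox9 cKO livers, against 342, 364 and 521 TPM in control livers. In all 3 stalk genes Sox9 cKO replicate 2 and control replicate 3 were the 2 highest, the groups overlapped and the log2 fold changes were -0.035, 0.033 and 0.042 for Rplp0, Rplp1 and Rplp2. The levels were not in equal ratio: Rplp1 averaged 1432 ± 291 TPM in Sox9 cKO livers and 1389 ± 183 TPM in control livers (SD, n = 3 each), above both of the others in every library.

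Rpl5 and Rpl11 bind the 5S rRNA and, when not assembled, the p53 regulator Mdm2. Rpl5 had 241, 319 and 242 TPM in Sox9 cKO livers, against 261, 244 and 321 TPM in control livers. Rpl11 had 638, 961 and 650.0 TPM in Sox9 cKO livers, against 703, 664 and 825 TPM in control livers. Both overlapped between groups, with log2 fold changes of -0.045 ± 0.17 and 0.017 ± 0.19 (SE).

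Other members with functions known beyond the subunit also stayed within their spread. Rps6 had 351, 527 and 377 TPM in Sox9 cKO livers, against 400.2, 372 and 519.9 TPM in control livers, a log2 fold change of -0.050 ± 0.20. Rps19, the gene most often mutated in human Diamond-Blackfan anaemia, had 336, 499.7 and 342 TPM in Sox9 cKO livers, against 377, 379 and 464 TPM in control livers. Rps14, lost in the human 5q deletion syndrome, had 439.8, 568 and 423 TPM in Sox9 cKO livers, against 522, 488 and 549 TPM in control livers. In each of these Sox9 cKO replicate 2 was the highest library, control replicate 3 came next, and the groups overlapped. Rpl38, needed for Hox mRNA translation in mouse embryos, had 640.2, 848 and 616.5 TPM in Sox9 cKO livers, against 585, 619 and 768.5 TPM in control livers. Rpl24, mutated in the Belly spot and tail mouse, had 386, 517 and 389.9 TPM in Sox9 cKO livers, against 419, 388 and 453.5 TPM in control livers.

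Rps27a, made as a fusion with ubiquitin, had 459.9, 683.5 and 507.5 TPM in Sox9 cKO livers, against 574, 537 and 697 TPM in control livers. Rpl13a had 405, 601 and 468 TPM in Sox9 cKO livers, against 465, 461 and 603 TPM in control livers. Rps3, at the mRNA entry of the small subunit, had 195, 279 and 211 TPM in Sox9 cKO livers, against 232, 203 and 261 TPM in control livers. All 3 overlapped between the groups, with log2 fold changes of -0.14 ± 0.19, -0.060 ± 0.19 and -0.032 ± 0.17 (SE) for Rps27a, Rpl13a and Rps3.

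Ribosomal proteins that carry other names gave like values. Fau, a fusion of a ubiquitin-like domain with a small subunit protein, had 519, 611 and 443 TPM in Sox9 cKO livers, against 582.5, 568 and 602.5 TPM in control livers. Rack1, listed under its older symbol Gnb2l1 and matched through RefSeq synonyms, is a signalling scaffold on the small subunit and had 373, 579 and 384 TPM in Sox9 cKO livers, against 436, 390.2 and 482 TPM in control livers. Neither passed the test, and in both Sox9 cKO replicate 2 and control replicate 3 were the highest libraries.

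The X-linked members are of interest because the libraries differed in sex-linked transcripts. Xist, the RNA of the inactive X chromosome, was at most 0.020 TPM in Sox9 cKO livers, against 114, 123 and 0.010 TPM in control livers, and the Y-linked Eif2s3y was 49.9, 47.6 and 48.1 TPM in Sox9 cKO livers, against 0.070, 0 and 51.6 TPM in control livers. Control replicate 3 thus resembled the Sox9 cKO libraries in these markers, and control replicates 1 and 2 did not. Rps4x had 543, 845 and 536.5 TPM in Sox9 cKO livers, against 592, 587 and 784 TPM in control livers. Rpl36a had 313, 461 and 279 TPM in Sox9 cKO livers, against 341, 313 and 417 TPM in control livers, and Rpl39 had 349, 502 and 379 TPM in Sox9 cKO livers, against 346.5, 366 and 532 TPM in control livers. In these 3 genes and in Rpl10, Sox9 cKO replicate 2 and control replicate 3 were the 2 highest, and control replicates 1 and 2 were below control replicate 3. With a sex-marker term, the median of all 81 genes was -0.24 with 11 above 0; the same median came from leaving out control replicates 1 and 2 together, which sets the Sox9 cKO libraries against control replicate 3 alone.

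Several ribosomal protein genes have a related gene, and 5 of 8 such copies were tested. All 5 had a log2 fold change above 0, with a median of 0.22, but 0 passed limma's test and 0 had an unadjusted p under 0.05. Rpl22l1, a copy of Rpl22 that is raised in mice lacking Rpl22, had 182, 298 and 137 TPM in Sox9 cKO livers, against 131.5, 159 and 227 TPM in control livers. Its ratio to Rpl22 was 2.60, 4.03 and 1.96 in Sox9 cKO livers, against 1.61, 2.15 and 2.58 in control livers, and the groups overlapped.

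Rpl36al (chr12:69182731-69184083), a copy of X-linked Rpl36a, had 510.0, 734 and 490.5 TPM in Sox9 cKO livers, against 462, 453 and 539.6 TPM in control livers (log2 fold change 0.23 ± 0.18, adjusted p = 0.42 by limma). Its ratio to Rpl36a was 1.63, 1.59 and 1.76 in Sox9 cKO livers, against 1.36, 1.45 and 1.29 in control livers. This was the 1 of 5 ratios of a copy to its partner in which the groups did not overlap, and it was not tested. Rps27l, a p53 target related to Rps27, gave a fitted difference of 0.22 ± 0.13 on the log2 scale (adjusted p = 0.28 by limma). Rpl7l1, a relative of the large subunit gene Rpl7, had 39.8, 50.4 and 46.8 TPM in Sox9 cKO livers, against 51.2, 40.3 and 42.0 TPM in control livers. Rpl7 itself had 608, 679 and 633 TPM in Sox9 cKO livers, against 696, 641 and 794 TPM in control livers. The copies known from other tissues, Rpl3l of striated muscle and the testis genes Rpl10l and Rpl39l, reached at most 0.22 TPM and fell under the filter on low values.

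The low rows stood beside high rows of genes that share sequence with them. Rpl26 was listed at 0 in every library and was not tested, while Gm15772, a processed pseudogene, had 735, 987.5 and 719 TPM in Sox9 cKO livers, against 781, 712 and 892 TPM in control livers. Rpl30 had 12.2, 2.24 and 5.03 TPM in Sox9 cKO livers, against 6.80, 2.89 and 14.7 TPM in control livers, while the pseudogene Gm12191 had 465, 735 and 496 TPM in Sox9 cKO livers, against 520.2, 467 and 630.4 TPM in control livers. Rpl34 stood beside Rpl34-ps1, with 455, 632 and 474 TPM in Sox9 cKO livers, against 514.5, 458 and 576 TPM in control livers. Rps27 had 3.43, 3.29 and 7.81 TPM in Sox9 cKO livers, against 3.85, 5.54 and 1.79 TPM in control livers, while Rps27rt, annotated as protein coding, had 593, 825 and 591 TPM in Sox9 cKO livers, against 737, 591 and 726 TPM in control livers. In all 4 pairs the copy's row was at the level of a typical ribosomal protein gene, and in Rpl26, Rpl30 and Rpl34 it had Sox9 cKO replicate 2 and control replicate 3 as its highest libraries.

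**Figure D4:**
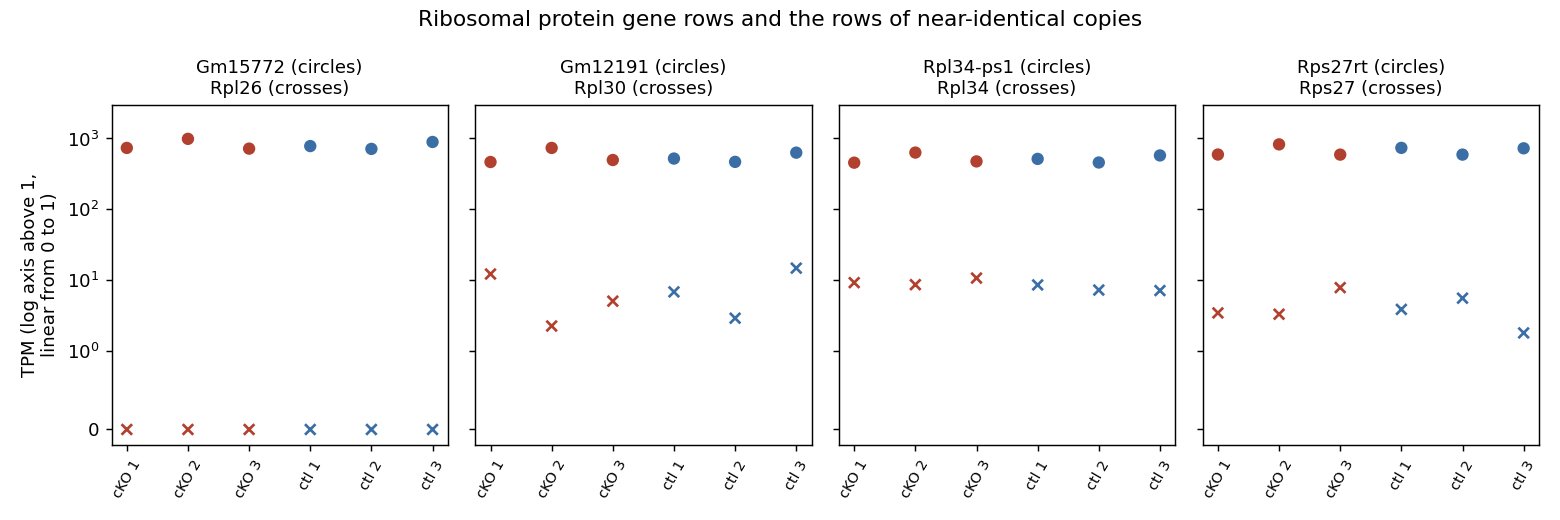
Level in TPM of 4 ribosomal protein rows (crosses) and of the row of a copy that shares sequence (circles). The 3 Sox9 cKO libraries are red, on the left, and the 3 control libraries blue, on the right. The axis is logarithmic above 1 and linear from 0 to 1. The copies lie between 455 and 987.5 TPM, and Rpl26 is at 0 throughout.

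The transcripts show how far reads of 75 nt can tell such rows apart. Of 84 ribosomal protein genes with a coding transcript in GENCODE M21, 80 share at least 1 window of 75 bases with another gene. In 11 the share with a gene that has a row in the table was at least 10% of windows, and in 4 of these the other row was higher than the member's own in all 6 libraries. The share was 98.5% for Rps27 with Rps27rt, 47.4% for Rpl26 with Gm15772, 41.4% for Rpl34 with Rpl34-ps1 and 40.1% for Rpl30 with Gm12191. The fold changes of these rows are therefore uncertain. Sharing was not limited to them: over the 84 genes the median share of windows found in any other gene was 47.5%. Its effect on the values of the other members was not tested. Adding the copy's row gave 477, 737 and 501 TPM for Rpl30 in Sox9 cKO livers, against 527, 470.0 and 645 TPM in control livers. Rps27 with Rps27rt gave 597, 829 and 599 TPM in Sox9 cKO livers, against 740.4, 597 and 728 TPM in control livers, again with overlapping groups.

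Rps15a, without such a dominant copy row, was also low, with 30.5, 44.1 and 30.3 TPM in Sox9 cKO livers, against 31.6, 28 and 38.7 TPM in control livers. It kept the order of the other members, with Sox9 cKO replicate 2 and control replicate 3 the highest. The row Rps15a-ps6 had 23.6, 33.4 and 20.6 TPM in Sox9 cKO livers, against 29.5, 25.8 and 39.7 TPM in control livers.

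Genes that work beside the ribosomal proteins also gave few calls. Over all tested genes 0.821% were called higher and 8.76% lower, and the median log2 fold change was -0.24. Of 23 elongation factor and other TOP genes, limma called 0 higher and 0 lower, with 3 unadjusted p under 0.05, and their median log2 fold change was -0.17. Eef1a1, which delivers aminoacyl-tRNA, had 3523, 3703 and 3553 TPM in Sox9 cKO livers, against 4255, 3863 and 4443 TPM in control livers (log2 fold change -0.22 ± 0.16, adjusted p = 0.38 by limma). Eef2, the translocase, had 608, 592 and 635 TPM in Sox9 cKO livers, against 835, 749.8 and 849 TPM in control livers (log2 fold change -0.41 ± 0.13, adjusted p = 0.079 by limma). In these 2 TOP genes, named after their values were seen, the groups did not overlap, with Sox9 cKO livers lower. The same held for Eif4b, Hnrnpa1, Npm1 and Pabpc1 of this list, and for 33.7% of all tested genes. In Eef1a1 and Eef2, Sox9 cKO replicate 2 was not raised as it was in the ribosomal protein genes. Hnrnpa1, an RNA-binding protein with a TOP mRNA, had the largest difference of the list, with 18.3, 15.9 and 8.88 TPM in Sox9 cKO livers, against 21, 27.1 and 35 TPM in control livers (adjusted p = 0.074 by limma).

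Of 29 tested initiation factor genes limma called 0, with 2 unadjusted p under 0.05 and a median of -0.037. Eif2s3x, the X-linked gamma subunit of eIF2, had 43.4, 41.7 and 47.9 TPM in Sox9 cKO livers, against 78.9, 73.9 and 48.2 TPM in control livers, the 2 higher controls being those with Xist. Of 52 ribosome biogenesis genes limma called 0, with 3 unadjusted p under 0.05 and a median of -0.038. Ddx10, a nucleolar helicase, had 5.00, 4.76 and 6.31 TPM in Sox9 cKO livers, against 7.46, 6.91 and 9.06 TPM in control livers (adjusted p = 0.10 by limma). Of 14 RNA polymerase I genes limma called 0, with 0 unadjusted p under 0.05. Their median of -0.22 was close to the -0.24 over all tested genes. Taf1c, a subunit of the selectivity factor of RNA polymerase I, had a log2 fold change of -0.46 ± 0.20.

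Among 19 tested genes of the mTOR pathway and other regulators of TOP translation, limma called 1 lower, against 8.76% of all tested genes. This was Akt1, a kinase upstream of mTOR. It had 26.4, 28.2 and 28.5 TPM in Sox9 cKO livers, against 46.5, 36.7 and 37.7 TPM in control livers (log2 fold change -0.53 ± 0.13, adjusted p = 0.048 by limma). Its adjusted p was 0.064 (without Sox9 cKO replicate 3) to 0.16 (without control replicate 1) when any 1 library was left out, and 0.31 with a median-centred scale or a sex-marker term. The median of the 19 genes was -0.23, close to the -0.24 over all tested genes. Among 77 mitochondrial ribosomal protein genes, limma called 1 higher and 0 lower, against 0.821% and 8.76% of all tested genes. The 1 called, Mrpl34, had 58.1, 68.8 and 61.3 TPM in Sox9 cKO livers, against 37.7, 44.8 and 42.2 TPM in control livers (log2 fold change 0.59 ± 0.13, adjusted p = 0.033 by limma). Its adjusted p was 0.053 to 0.13 when any 1 library other than Sox9 cKO replicate 3 was left out, and 0.21 with a sex-marker term. The median of the 77 genes was 0.0079. Sox9 cKO replicate 2 and control replicate 3 were the 2 highest libraries in 19 of these 77, 8 of 23 TOP genes, 3 of 29 initiation factor genes and 5 of 52 biogenesis genes, against 70 of 81 ribosomal protein genes.

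**Figure D5:**
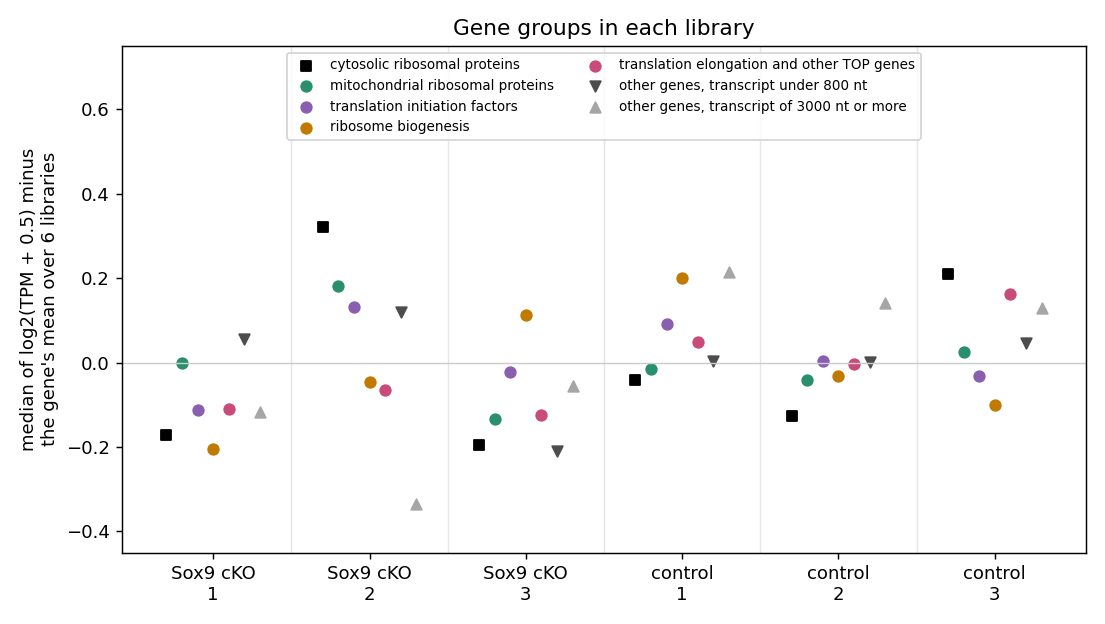
Median deviation of each gene group from its genes' own means, log2(TPM + 0.5), in the 6 libraries, Sox9 cKO on the left. Black squares are the cytosolic ribosomal protein genes, circles are related lists and triangles are other genes by transcript length; the cytosolic ribosomal proteins have the highest median of the 7 groups in Sox9 cKO replicate 2 (0.32) and control replicate 3 (0.21).

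The tissue and the labels were checked in the same table. Sox9 was 0.19, 0.40 and 0.68 TPM in Sox9 cKO livers, against 1.69, 1.43 and 1.43 TPM in control livers (log2 fold change -1.16 ± 0.25, adjusted p = 0.032 by limma); the groups did not overlap. The adjusted p was 0.062 to 0.12 when any 1 library other than Sox9 cKO replicate 3 was left out, 0.094 with median centring, 0.23 with quantile normalization and 0.20 with a sex-marker term. Of 9 tested hepatocyte markers limma called 1, Serpina1c, a secreted protease inhibitor, higher, with 11080 to 13580 TPM in Sox9 cKO livers, against 6758 to 7537 TPM in control livers; 3 of the 9 lay above 0 and the median was -0.27. Albumin ran from 74910 to 82380 TPM in Sox9 cKO livers, against 100900 to 110500 TPM in control livers, and was not called. Most called markers of other liver cells were lower beside ribosomal protein genes that were not called: limma called 10 of 13 tested macrophage markers lower, with a summed level of 259 to 570.5 TPM in Sox9 cKO livers, against 769 to 1304 TPM in control livers. It called 8 of 11 stellate cell and fibroblast markers lower (116 to 214 TPM in Sox9 cKO livers, against 372 to 404 TPM in control livers). Of 11 tested cholangiocyte markers 0 lay above 0 and 5 were called lower, the deleted gene Sox9 among them (summed level 48.3 to 72.6 TPM, against 86.5 to 145.5 TPM). Spp1, which held most of that sum, was not called, and Krt19 and Epcam overlapped between the groups and were not called. The markers Elf3, Sox9 and Cldn7 averaged 0.17, 0.42 and 0.36 TPM in Sox9 cKO livers, against 1.94, 1.52 and 1.05 TPM in control livers. They passed the filter of 0.5 TPM through the control libraries alone, so only a lower difference was possible for them. Elf3 and Sox9 are among the 5 called, and Cldn7 is not. Of other tested markers, limma called lower 5 of 5 neutrophil, 4 of 9 endothelial, 3 of 8 lymphocyte and 3 of 5 erythroid markers. Another erythroid marker, the haem synthesis gene Alas2, was called higher, with 53.7 to 117 TPM in Sox9 cKO livers, against 24.8 to 35.2 TPM in control livers. Xist was at most 0.020 TPM in all Sox9 cKO libraries and above 100 TPM in 2 of 3 controls, so the sex markers are partly confounded with the groups; with a sex-marker term the calls over all tested genes were 21 higher and 49 lower, against 103 and 1099 without it. Camp and Retnlg, defining markers of neutrophils, were listed at 0 in all 3 Sox9 cKO libraries. They passed the filter on low values through the control libraries alone, so only a lower call was possible for them. Of 8 neutrophil markers with a row, 5 passed that filter. In whole liver RNA, fewer cells of a type and less RNA per cell cannot be told apart, and the part of cell makeup in the ribosomal protein values was not tested.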

How the data were processed

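Stranded mRNA libraries of mouse liver were sequenced as single-end reads of 75 nt, per the labels' protocols. The authors ran Trim Galore 0.5.0, cutadapt 1.16, STAR 2.6.0a on mm10 and RSEM 1.3.1, per the submitters' processing notes and the design text; which annotation and strand option RSEM had is not given in the sources used here. The authors deposited 1 table of TPM, each library summing to 1000000, so depth is unknown and no counting interval was computed.

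All genes averaging 0.5 TPM or more were tested with limma 3.58.1 (R 4.3.3) on log2(TPM + 0.5), 3 Sox9 cKO against 3 control libraries, with an empirical Bayes variance trend, two-sided, Benjamini-Hochberg adjusted over all 12539 genes; the model was tested on simulated data. This scale understates changes of low genes. A date replaced the symbol in 27 rows, which match no member. Other pseudocounts, filters, scalings, weights, a replicate block, a sex-marker term and left-out libraries were tried. Gene coordinates and transcripts are from GENCODE M21, whose build, GRCm38, is that of mm10; promoter windows are from RefSeq on GRCm38.p6. Overlapping and near-identical genes share reads.

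The members and lists were chosen with earlier results of these data known. Named were the 5 highest and 5 lowest tested members, the 3 largest differences in each direction, all stalk, X-linked, paralog and 5S RNP members, 8 members by name, and up to 4 called, or else the 2 largest, of each companion list; of these, those that bear on the results are printed. Some named genes are not reported here, and 1 is not drawn where figures name each gene.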

Additional observations from a re-analysis of the deposited data

How the results depend on the processing

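Under the 22 other settings limma called 0 ribosomal protein genes in either direction, with 0 to 9 unadjusted p under 0.05 and a smallest adjusted p of 0.058 (Rpl34, quantile normalization). The median log2 fold change of the 81 genes, -0.047 as reported, moved to 0.23 with 80 genes above 0 when each library was centred on its median gene, which itself moved the median of all tested genes from -0.24 to 0.038. Centring shifts all genes of a library alike, so the distance of the members' median from that of all genes (0.19) cannot change under it; it was -0.041 after quantile normalization and -0.022 with the sex-marker term. The members' median was -0.011 after quantile normalization and 0.011 after rescaling without the 50 most abundant genes. Leaving out 1 library gave -0.21 (without Sox9 cKO replicate 2) to 0.071 (without control replicate 3), and leaving out these 2 together gave -0.097. Counts over all tested genes ran from 9 higher and 18 lower without control replicates 1 and 2 to 252 higher and 2312 lower with array weights, against 103 and 1099 as reported; median centring gave 146 and 256, quantile normalization 120 and 215. With the replicate number as a block, 0 ribosomal protein genes were called, the median was -0.047 and all genes gave 85 higher and 563 lower. Same-numbered libraries correlated at -0.045, 0.0035 and -0.027 in their deviations across genes. These values show no strong effect shared by number, and they cannot tell whether the samples were paired. The calls of Sox9, Akt1 and Mrpl34 were lost under the replicate block (adjusted p of 0.064, 0.10 and 0.062 by limma). TPM hold no depth, which limits statements on the lowest rows.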
